A study of Mus musculus with 36 samples.

Results

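Solute carriers were followed in mouse astrocyte cultures given dexamethasone, a synthetic glucocorticoid, or vehicle. The members are genes whose array symbol has the form of a solute carrier name (Slc, a family number, a letter and a number), whose intensity averaged 150 or more over all 36 arrays, each read from its brightest probe. The array lists 321 such symbols on 560 probes; 159 lay under that mean, and Slc1a2, Slc1a3, Slc2a1, Slc10a6, Slc30a1 and Slc38a3 were set aside by name. This left 156 members among the 20637 genes tested. The members were thus chosen by their symbol and their mean intensity over both treatments, so their brightness is not a finding. For 6 members the mean of 1 treatment alone lay under 150; Slc29a2 was such a member by its dexamethasone mean, and Slc45a3, Slc25a27, Slc1a6, Slc33a1 and Slc39a2 by their vehicle means, so they passed only through the treatment where they read higher.

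The cultures were primary cells from the cortex of newborn (P0-P2) C57B/6 mice, although the growth protocol names hippocampus as an alternative source, and they were grown to near confluence in serum-containing medium. They received about 100 nM dexamethasone or vehicle for 0.25, 1, 2 or 4 h early in the series or for 6, 12, 18 or 24 h later, and total RNA was hybridised to Illumina BeadChips. The 2 h and 4 h groups hold 3 arrays per treatment and all other groups 2, which gives 18 dexamethasone and 18 vehicle arrays. Titles of the vehicle arrays at 2, 4 and 6 h end in a suffix that no other title carries. What it marks is not said in the titles, so at these times it cannot be told apart from treatment. The labels do not state whether replicates are separate cultures, so every p-value here reflects the spread among the arrays as labelled, part of which may be technical.

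Solute carriers are membrane proteins that move nutrients, ions, neurotransmitters and metabolites across the plasma membrane and the membranes of organelles. Astrocytes use them to clear transmitters, to exchange amino acids and organic acids with neurons, and to hold ion and pH balance around synapses. The glucocorticoid receptor is a transcription factor that binds DNA when a steroid such as dexamethasone occupies it.

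The astrocyte label was checked against 12 astrocyte markers, of which 10 lay above background on all 36 arrays. Markers of other cells were also present: 13 of 14 tested microglial and all 5 tested ependymal markers lay above background on every array. The 8 arrays of 0.25 h and 1 h stood apart, with summed microglial marker intensities between 24923 and 35152, and so did vehicle replicate 1 at 12 h with 28424; the other 27 arrays lay between 6843 and 16692. In such bulk RNA, fewer cells of a type and less RNA per cell cannot be told apart. Differences below are log2 values, dexamethasone minus vehicle, of background-corrected intensities, with the standard error (SE) from limma. A gene was called at a Benjamini-Hochberg adjusted p under 0.05 over all genes tested.

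Averaged over the 8 times, 38 of the 156 members were called (24.4%): 20 rose and 18 fell. Over all genes tested the share called was 11.8% (5.15% higher, 6.63% lower), and over genes with a mean intensity of 150 or more it was 16.9%. Slc45a3 and Slc25a27, which passed the intensity limit through dexamethasone alone, are among the 20; of the 150 members with both means at 150 or more, 36 were called. With same-numbered arrays kept as a block at every time, 61 members were called (29 higher, 32 lower), beside 24.2% of all genes. With a limit of 1.5-fold added, 10 members were called, against 2.2% of all genes. The largest rises were those of the mitochondrial pyrimidine nucleotide carrier Slc25a33 (2.15) and the sugar carrier family member Slc45a3 (1.66). The largest falls were those of the lysosomal peptide and histidine transporter Slc15a3 (-0.83), the monocarboxylate family member Slc16a9 (-0.75) and the plasma membrane sodium-calcium exchanger Slc8a1 (-0.60). Slc15a3 reads near background, and without background correction its value was -0.64, a smaller fall than the -0.69 of Slc16a9. The median difference was -0.0049 over the members and -0.0087 over all genes. Leaving out any 1 array gave between 33 and 42 called members, beside 10.1% to 12.8% of all genes.

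No member was called at 0.25 h by limma, and none had an unadjusted p under 0.05 there (0% of all genes were called). At 1 h none was called either, with 3 at an unadjusted p under 0.05 (0.0678% of all genes called, 0.063% higher and 0.00485% lower). By 2 h there were 4 called members, all higher, while 0.722% of all genes were called (0.596% higher, 0.126% lower). The 4 h arrays gave 6 higher and 1 lower (all genes 2.36%, with 1.55% higher and 0.814% lower), and the 6 h arrays 5 higher and 3 lower (all genes 2.08%, with 1.4% higher and 0.683% lower). The highest count was that of 12 h, with 8 higher and 11 lower (all genes 5.68%, with 2.2% higher and 3.47% lower). The 18 h arrays gave 5 higher and 7 lower (all genes 3.64%, with 1.67% higher and 1.97% lower), and those of 24 h 2 higher and 3 lower (3.21% of members; all genes 3.87%, with 1.84% higher and 2.03% lower). Among genes with a mean intensity of 150 or more, 1.05% were called at 2 h, 3.53% at 4 h and 2.87% at 6 h. At 12, 18 and 24 h these shares were 8.31%, 5.69% and 5.83%. Same-numbered arrays varied together at 2 h and 4 h. With the pairing kept as a block the 4 h count was 15 in place of 7 (6.46% in place of 2.36% of all genes). In all, 26 members were called at 1 or more times, 14 of them at a single time, and none was called in opposite directions at different times. Only Slc25a33 was called at 6 times, the most for any member, and 117 were called neither at a time nor on the average.

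**Figure D1:**
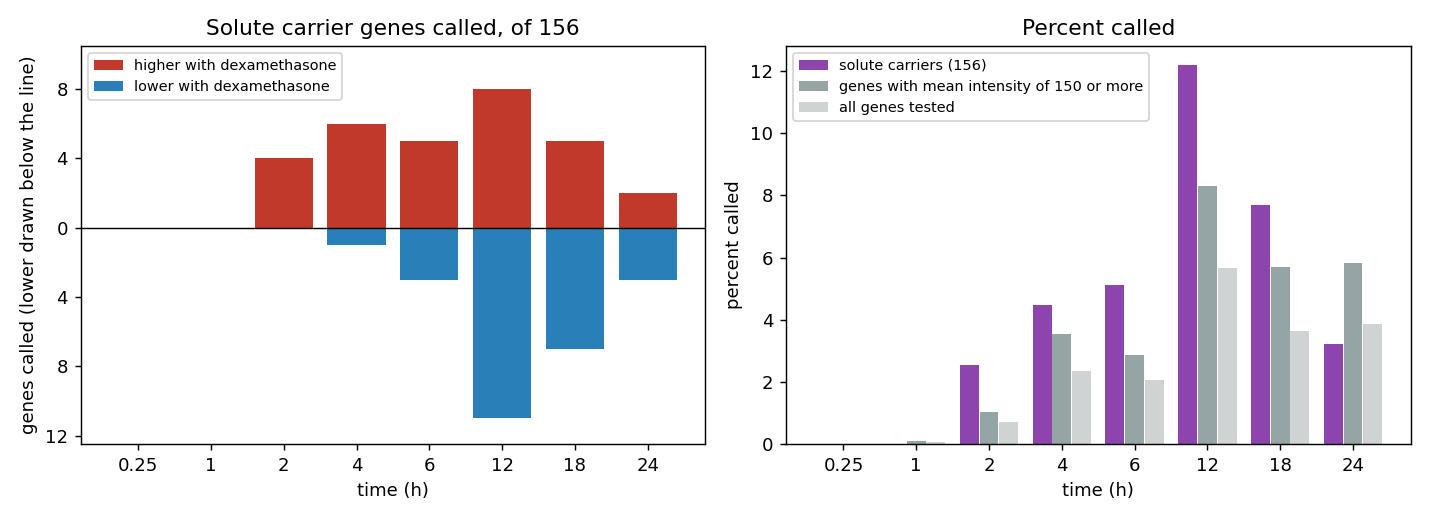
Members called at each of the 8 times (adjusted p under 0.05), higher with dexamethasone above the line and lower below it, beside the percent called of the members, of genes with a mean intensity of 150 or more, and of all genes. The 2 h calls are all higher, and the 12 h bars are the tallest with 8 higher and 11 lower.

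The order of the late times depended on the fit. Array weights in limma came out equal within every group of 2 arrays, so there they reflect the spread of a group and not single arrays. With these weights 34 members were called at 6 h, 6 at 12 h and 52 at 18 h, beside 11.2%, 1.42% and 18.6% of all genes. With each time fitted alone, on 2 residual degrees of freedom, the counts were 30, 0 and 46, beside 9.78%, 0.121% and 16.7%. Single-time counts also depended on single arrays, and so did the share of all genes called. With 1 array left out that share ran from 0.528% to 0.843% at 2 h and from 0.955% to 2.33% at 6 h. Its range was 2.88% to 6.86% at 12 h, 1.78% to 4.09% at 18 h and 2.17% to 4.47% at 24 h. The 2 h count was 2 without dexamethasone replicate 3 or vehicle replicate 3 of that time. The 6 h count was 4 and 3 without dexamethasone replicates 1 and 2, and 3 and 5 without vehicle replicates 1 and 2. At 12 h it was 9 without dexamethasone replicate 2 and 15 without vehicle replicate 1, the array that stood apart. At 18 h it was 6 without any 1 of the 4 arrays of that time, and at 24 h it was 11 without either 12 h vehicle array, since all arrays share 1 estimate of the spread.

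The promoter windows of Slc25a33 and Slc45a3 are shown because these genes had the 2 largest rises; each runs from 250 bases before to 50 after the start of the gene in RefSeq, build GRCm38.p6. The Slc25a33 window is chr4:149774218-149774517 on the minus strand, and the Slc45a3 window is chr1:131962665-131962964 on the plus strand, 1 of 2 that RefSeq lists for that gene. Capitals mark the E-box CACGTG, which MYC and its relatives can bind.
Slc25a33: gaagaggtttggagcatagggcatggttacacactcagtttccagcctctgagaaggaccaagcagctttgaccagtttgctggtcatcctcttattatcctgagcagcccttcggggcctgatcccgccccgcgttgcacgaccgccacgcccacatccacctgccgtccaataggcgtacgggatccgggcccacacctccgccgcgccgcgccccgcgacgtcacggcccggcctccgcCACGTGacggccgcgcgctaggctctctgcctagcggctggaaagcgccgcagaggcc
Slc45a3: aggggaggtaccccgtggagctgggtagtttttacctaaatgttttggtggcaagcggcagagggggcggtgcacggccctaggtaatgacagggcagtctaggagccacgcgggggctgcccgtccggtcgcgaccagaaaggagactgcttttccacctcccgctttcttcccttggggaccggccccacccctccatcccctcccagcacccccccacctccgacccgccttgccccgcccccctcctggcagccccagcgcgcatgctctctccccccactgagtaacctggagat
Neither window holds a glucocorticoid receptor element (2 inverted half-sites with a spacer of 3 bases, in a loose form that fixes 8 of its bases) or the half-site AGAACA, on either strand, which says only that these letters are not in these windows. Of 32851 mouse windows of the same length, 0.475% hold the element, 19% the half-site and 7.15% the E-box. RefSeq windows were found for 121 members (164 windows): none held the element, 8.54% the half-site and 14.6% the E-box. The windows were not matched for base composition and some members have several. Whether these shares are a trait of the carriers was not tested.

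Slc25a33, which imports pyrimidine nucleotides into mitochondria, had intensities of 718.5, 4120.15 and 8477 (lowest, median and highest of 18) with dexamethasone and 616.9, 768.95 and 1017 with vehicle. The lowest dexamethasone value belongs to 0.25 h; from 2 h on every dexamethasone array lay above every vehicle array. At 4 h the dexamethasone arrays read 7814, 7867 and 6127 and the vehicle arrays 763.7, 844.6 and 683.0. This was its largest difference, 3.31 (SE 0.18, 9.90-fold, limma adjusted p = 1.5e-12). It rose at each time from 2 h (2.05) to 24 h (2.34), while at 1 h its 0.73 did not pass (adjusted p = 1). Its 2.88 at 12 h had an adjusted p of 0.06 when the 12 h arrays were fitted alone.

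Slc45a3, known as prostein and able to carry sugars with protons, differed from vehicle for a shorter time. With dexamethasone it read 538.2, 503.3 and 607.0 at 2 h, 1265, 1191 and 790.7 at 4 h, and 1203 and 1106 at 6 h. With vehicle its 18 arrays ran from 87.9 to 150.7, close to the background level of 91.7. The difference was 2.73 (SE 0.22) at 2 h, 3.85 at 4 h (14.4-fold, limma adjusted p = 1.7e-12), 3.37 at 6 h and 1.70 at 12 h. At 24 h the groups overlapped, with 94.7 and 133.5 with dexamethasone and 87.9 and 108.1 with vehicle (0.30, adjusted p = 0.79), and at 18 h the 0.61 did not pass either (adjusted p = 0.35). Because vehicle lay near background, the size at 4 h depended on the correction: without it the difference was 3.32, next to 3.25 for Slc25a33. Its call at 12 h was lost when that time was fitted alone (adjusted p = 0.35).

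**Figure D2:**
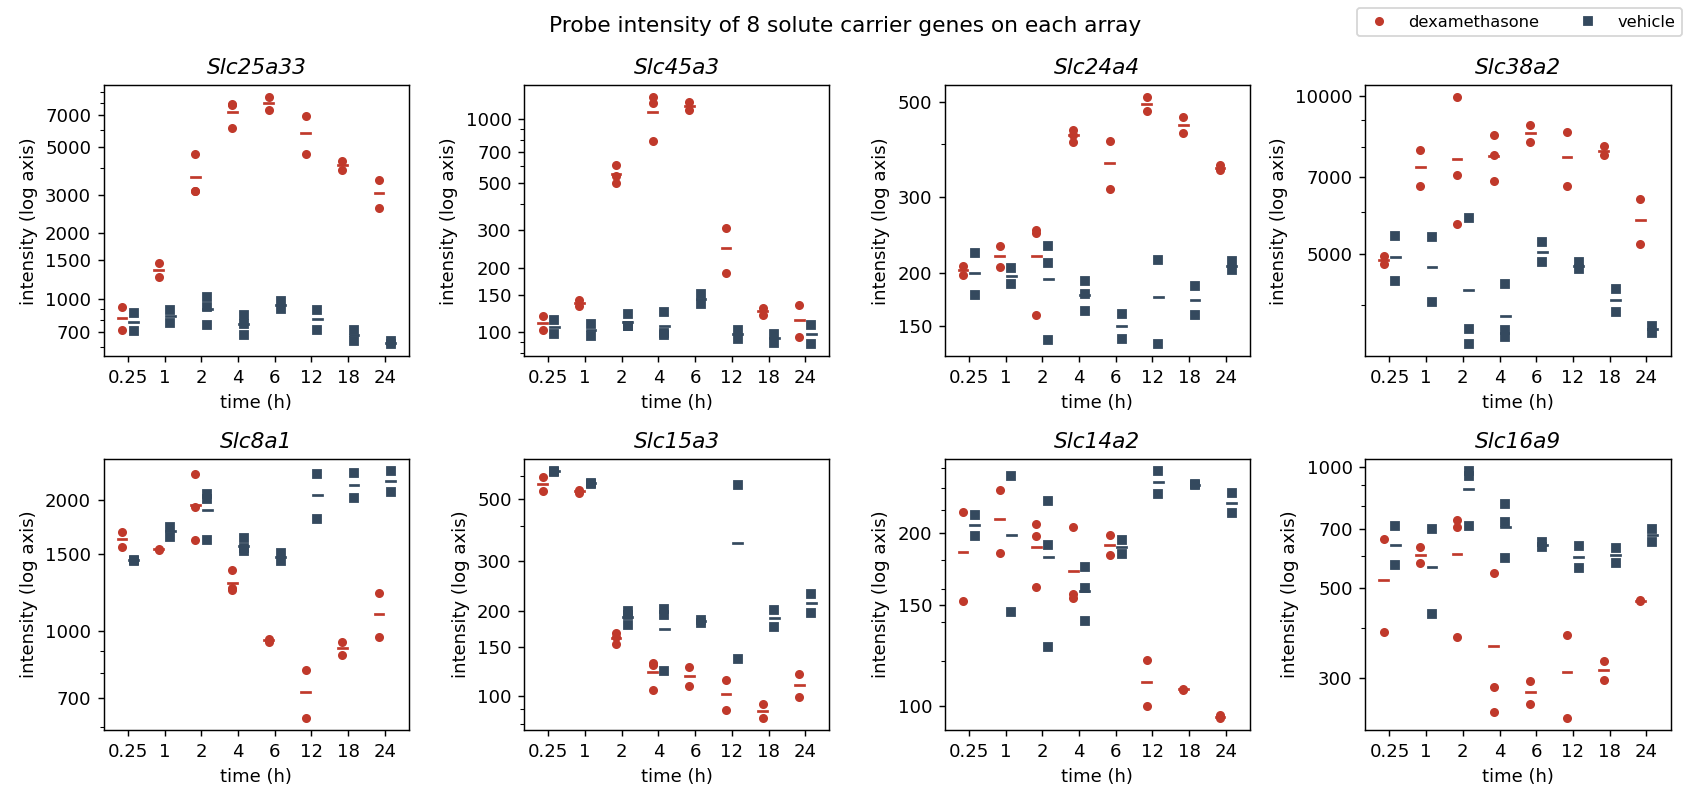
Intensity on every array (log axis) against hours of treatment for 8 members, dexamethasone as circles and vehicle as squares, with short lines at the group means. Every dexamethasone array lies above both or all vehicle arrays of its time for Slc25a33 from 1 h on, and for Slc45a3 the groups overlap at 24 h.

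Among the other 29 of 30 mitochondrial carriers the differences were small. Slc25a27, an uncoupling protein family member (0.30), and Slc25a38, a glycine carrier (0.29), rose on the average, and Slc25a18, Slc25a37 and Slc25a15 fell. Of the bright members, Slc25a5 (an ADP/ATP carrier, mean intensity 15191) and Slc25a3 (the phosphate carrier, 11738), had average differences of 0.03 and 0.01 that did not pass. Slc25a18, a mitochondrial glutamate carrier and the second brightest member (14514), fell by 0.39 (SE 0.08, adjusted p = 0.0016). Its arrays at 12 h read 8865 and 5597 with dexamethasone and 22082 and 12291 with vehicle. The 12 h fall of -1.23 (adjusted p = 0.0024) did not hold without vehicle replicate 1 (-0.81, adjusted p = 0.088) or dexamethasone replicate 2 of that time (highest adjusted p 0.11). Slc25a37, which brings iron into mitochondria, fell by 0.29 on the average (adjusted p = 0.012) and by 0.85 at 12 h, calls that ended without the 12 h arrays (-0.21, adjusted p = 0.12) or, at 12 h, without dexamethasone replicate 2 or vehicle replicate 1 (adjusted p up to 0.32). Slc25a15, the ornithine carrier, fell by 0.21, lower at all 8 times. The call of Slc25a27 was lost without any 1 of 27 arrays (adjusted p up to 0.084).

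The other sugar carriers moved less. Among the 12 members of that class 2 rose and 2 fell on the average. Slc37a4, the glucose 6-phosphate transporter of the endoplasmic reticulum, rose by 0.45 (SE 0.12, adjusted p = 0.013), with medians of 193.15 with dexamethasone and 159.8 with vehicle and overlapping ranges. Slc2a6, a glucose transporter family member of lysosomes, fell by 0.32 on the average and by 0.96 at 12 h, where the arrays read 217.5 and 214.0 with dexamethasone and 563.6 and 268.9 with vehicle. Without vehicle replicate 1 the 12 h value was -0.37 (adjusted p = 0.58), and without replicate 2 it was -1.55; the average call was lost without any 1 of 4 arrays (vehicle replicate 2 at 1 h, vehicle replicate 1 at 6 h and replicate 2 of each treatment at 24 h, adjusted p up to 0.059) and without the 12 h arrays (-0.23, adjusted p = 0.10). Slc5a6, placed in this class by its Slc5 family name, carries vitamins such as biotin and not sugars; it fell by 0.22, a call lost without any 1 of 11 arrays.

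Of the 18 amino acid and neurotransmitter carriers, 5 rose and 2 fell on the average. The risers were Slc38a2, a sodium-coupled carrier of small neutral amino acids, Slc3a2, the heavy chain that brings several light-chain transporters to the cell surface, the cationic amino acid carrier Slc7a2, the light chain Slc7a6 (0.26) and Slc38a9, an arginine sensor of lysosomes (0.23). The fallers were Slc1a4, an exchanger of alanine, serine and cysteine, and the taurine transporter Slc6a6 (-0.23). The rise of Slc38a9 was lost without any 1 of 26 arrays (adjusted p up to 0.094).

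Slc38a2 was among the bright members. Its lowest, median and highest intensities were 4784, 7392.95 and 9955 with dexamethasone and 3360, 4331.75 and 5849 with vehicle. At 4 h the dexamethasone arrays read 7730, 6893 and 8449 and the vehicle arrays 3462, 3569 and 4377, a difference of 1.03 (SE 0.19, 2.04-fold, adjusted p = 0.0015). The groups did not overlap there or at 6, 12, 18 and 24 h. It was called also at 2 h (0.84, adjusted p = 0.03) and 18 h (0.96, adjusted p = 0.018). Each of these calls was lost without any 1 of 4 arrays of its time, namely dexamethasone replicates 1 and 3 and vehicle replicates 2 and 3 at 2 h (adjusted p up to 0.29) and all 4 arrays at 18 h (adjusted p up to 0.20). On the average it rose by 0.70 (SE 0.08, adjusted p = 4e-07), and no single array ended that call.

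Slc3a2 read 462.2, 1138.85 and 2470 (lowest, median and highest) with dexamethasone and 408.4, 798.6 and 1243 with vehicle. It rose by 0.68 on the average (SE 0.14, adjusted p = 0.00078) although no single time passed; at 12 h, its largest difference, 2207 and 2470 with dexamethasone stood against 1035 and 984.7 with vehicle (1.24, adjusted p = 0.074). Slc7a2 rose by 0.45 on the average and by 1.18 at 12 h (SE 0.26, adjusted p = 0.0045), where 904.7 and 996.0 with dexamethasone stood against 439.7 and 438.5 with vehicle. Without dexamethasone replicate 2 of 12 h that adjusted p was 0.059.

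Several of these genes belong to the amino acid response, in which the transcription factor ATF4 raises transporters when amino acids run short. Of the 8 carriers listed for it, 5 were tested: Slc38a2 and Slc3a2 rose, Slc1a4 fell, and the glycine transporter Slc6a9 (-0.12) and the cystine-glutamate exchanger Slc7a11 (-0.07, intensity under 150 and so no member) were not called. Slc1a4 read 1045, 1633.6 and 2146 with dexamethasone and 1415, 2032.1 and 2529 with vehicle; it fell by 0.27 (SE 0.07, adjusted p = 0.0065), being lower at 7 of the 8 times. The promoter windows of Slc38a2 (chr15:96699679-96699978) and Slc1a4 (chr11:20332664-20332963), both on the minus strand of GRCm38.p6, are shown because both genes are on that list and moved in opposite directions. Capitals mark TTGCATCA, an amino acid response element.
Slc38a2: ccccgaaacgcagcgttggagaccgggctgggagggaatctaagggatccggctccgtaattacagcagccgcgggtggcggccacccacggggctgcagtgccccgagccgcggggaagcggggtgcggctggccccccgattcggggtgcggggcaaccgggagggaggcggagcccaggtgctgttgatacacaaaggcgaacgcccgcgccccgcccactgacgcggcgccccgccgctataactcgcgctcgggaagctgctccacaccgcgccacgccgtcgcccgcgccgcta
Slc1a4: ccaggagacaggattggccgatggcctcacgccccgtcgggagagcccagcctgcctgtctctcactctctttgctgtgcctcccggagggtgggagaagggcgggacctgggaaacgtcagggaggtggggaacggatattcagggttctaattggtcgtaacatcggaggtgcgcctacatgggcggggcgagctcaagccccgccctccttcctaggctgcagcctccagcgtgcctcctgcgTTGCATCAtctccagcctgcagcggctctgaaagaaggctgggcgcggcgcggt
The motif was found in 0.895% of all windows and in 0.61% of the member windows, the only member window being that of Slc1a4. Its absence from the Slc38a2 window says only that these letters are not in that window. No sequence outside the windows was searched.

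Of the 23 inorganic ion carriers 3 rose and 1 fell on the average. The members include 4 exchangers of sodium and calcium, named here after their values were seen: Slc24a4 and Slc24a6 rose, Slc8a1 fell, and Slc24a3 had an average of -0.03 that did not pass (adjusted p = 0.90) and was called at no time. Slc24a4, a potassium-dependent sodium-calcium exchanger of the plasma membrane, read 159.0, 351.25 and 513.2 with dexamethasone and 136.3, 187.1 and 230.3 with vehicle. From 4 h on the groups did not overlap at any time. It rose by 1.43 at 4 h, 1.48 at 6 h, 1.77 at 12 h (3.41-fold, adjusted p = 0.00011) and 1.57 at 18 h, while 0.87 at 24 h did not pass (adjusted p = 0.079). The 6 h call was lost without dexamethasone replicate 2 or vehicle replicate 1 (adjusted p up to 0.072), and the 12 h call when that time was fitted alone (adjusted p = 0.32).

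Slc8a1, which extrudes calcium in exchange for sodium, moved the other way. Its arrays read 812.7 and 630.0 with dexamethasone and 1813 and 2303 with vehicle at 12 h, and 877.9 and 944.2 against 2021 and 2309.6 at 18 h. From 4 h on every dexamethasone array lay below every vehicle array. The falls were -0.66 at 6 h (adjusted p = 0.046), -1.56 at 12 h (SE 0.18, 2.95-fold lower, adjusted p = 1.2e-06), -1.28 at 18 h and -1.05 at 24 h. The 6 h call was lost without any 1 of 26 arrays (adjusted p up to 0.37), and the 12 h call when that time was fitted alone (0.31).

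Slc24a6 (current symbol Slc8b1), the sodium-calcium exchanger of the inner mitochondrial membrane, rose by 1.33 at 12 h (SE 0.27, adjusted p = 0.0029), where 4351 and 4674 with dexamethasone stood against 2436 and 1358 with vehicle. At 24 h its arrays read 5270.1 and 4182 with dexamethasone and 2599 and 2705 with vehicle (0.83, adjusted p = 0.11). The 12 h call was lost without vehicle replicate 2 (adjusted p = 0.085), and the average of 0.33 without the 12 h arrays (0.19, adjusted p = 0.28). Slc12a2, the sodium-potassium-chloride cotransporter, rose by 0.41 on the average (SE 0.07, adjusted p = 5.5e-05); at 6 h it read 8865 and 8319 with dexamethasone and 4172 and 5091 with vehicle (0.90, adjusted p = 0.0082). That 6 h call was lost without vehicle replicate 1 or either dexamethasone array (adjusted p up to 0.23).

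Both urea transporters fell. Slc14a2 read 95.3 to 120.5 with dexamethasone and 217.0 to 257.1 with vehicle over the 6 arrays of each treatment from 12 h on, with no overlap. Its differences reached -1.49 by 12 h, -1.53 by 18 h and -1.64 by 24 h (SE 0.29, 3.13-fold lower, adjusted p = 0.00057), after values between -0.22 and 0.17 up to 6 h, and the 12 h call was lost when that time was fitted alone (adjusted p = 0.31). These dexamethasone readings lie near the background level of 91.7, and the sizes depend on the background correction. Even the highest vehicle reading over the lowest dexamethasone reading is a ratio under the 3.13-fold given. A further, dimmer Slc14a2 probe averaged -0.34 (limma adjusted p = 0.057), beside -0.55 for the probe used. Slc14a1, the urea channel of red cells and astrocytes, read 104.3 to 132.4 with dexamethasone and 173.7 to 275.8 with vehicle over 6, 12 and 18 h. With dexamethasone it too read near background. It fell by 0.94 at 6 h, 1.14 at 12 h and 0.97 at 18 h, but at 24 h its -0.29 did not pass (adjusted p = 0.77). These calls were lost without any 1 of the 4 arrays at 6 h (adjusted p up to 0.39) or at 18 h (up to 0.19), and without vehicle replicate 1 at 12 h (0.093).

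**Figure D3:**
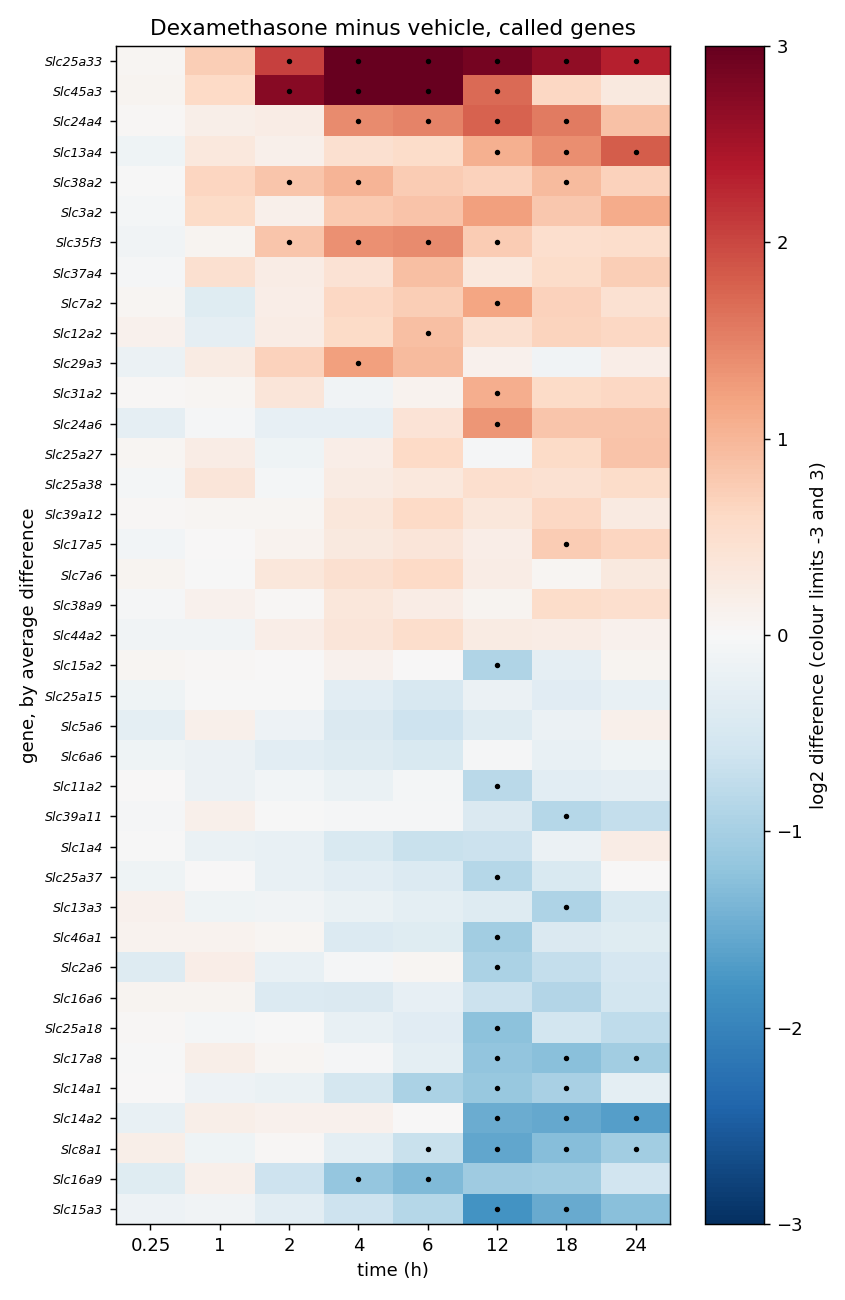
Log2 difference, dexamethasone minus vehicle, at each of the 8 times for the members called on the average or at a time; rows are genes and columns run from 0.25 to 24 h. Slc25a33 and Slc45a3 are the strongest rises at 4 h, and Slc14a2, Slc17a8 and Slc8a1 are lower from 12 h on.

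Of 6 monocarboxylate and dicarboxylate family members, 1 rose and 3 fell on the average. The riser was Slc13a4, which carries sulfate with sodium: its arrays at 24 h read 404.8 and 455.6 with dexamethasone and 154.0 and 140.1 with vehicle. The difference at 24 h was 1.81 (SE 0.32, 3.52-fold, adjusted p = 0.00047), after 1.07 at 12 h and 1.39 at 18 h. The 12 h call was lost without any 1 of 23 arrays and the 18 h call without any 1 of the 4 arrays of that time (adjusted p up to 0.25 and 0.094). Slc13a3, the sodium-dicarboxylate cotransporter that takes up citric acid cycle acids, fell by 0.30 on the average and by 0.94 at 18 h (adjusted p = 0.0019), where 207.8 and 204.5 with dexamethasone stood against 349.5 and 376.6 with vehicle.

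Slc16a9, a carnitine and monocarboxylate transporter, fell by 0.75 on the average (SE 0.12, 1.68-fold lower, adjusted p = 6e-05). At 4 h it read 247.8, 284.8 and 545.7 with dexamethasone and 596.1, 730.1 and 806.7 with vehicle, without overlap (-1.16, adjusted p = 0.026). At 6 h the values were 295.7 and 258.9 with dexamethasone and 649.4 and 631.7 with vehicle (-1.32, adjusted p = 0.048). The 4 h call was lost without dexamethasone replicates 1 or 2 or vehicle replicates 2 or 3 (adjusted p up to 0.23), and the 6 h call without any 1 of 24 arrays (up to 0.44). Slc16a6, of the same family, fell by 0.38 on the average (adjusted p = 0.0039) with no single time called.

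Most carriers of metals, nucleotide sugars and vitamins did not pass, which also held for all genes tested. The share called on the average was 11.8% of all genes and 16.9% of those with a mean intensity of 150 or more. Of 24 metal and heme carriers 2 rose and 2 fell. Slc39a12, a zinc importer and the fourth brightest member (mean 11359), rose by 0.29 (SE 0.08, adjusted p = 0.015), with a positive value at all 8 times and overlapping ranges (8298 to 16063 with dexamethasone and 5977 to 14302 with vehicle). Slc31a2, a copper transporter family member, rose by 0.35 on the average and by 1.08 at 12 h, where 342.4 and 282.3 with dexamethasone stood against 193.5 and 141.5 with vehicle (adjusted p = 0.023). The 12 h call was lost without vehicle replicate 2 or either dexamethasone array of 12 h (adjusted p up to 0.21), and the average call without all 12 h arrays (0.24, adjusted p = 0.18).

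The metal carriers that fell were Slc11a2, which imports iron and other divalent metals, and the zinc transporter Slc39a11. Slc11a2 fell by 0.80 at 12 h, a call lost without dexamethasone replicate 2 or vehicle replicate 2 (adjusted p up to 0.22), and its average of -0.24 was -0.16 without the 12 h arrays (adjusted p = 0.22). A further Slc11a2 probe, above background on all 36 arrays, averaged -0.05 (limma adjusted p = 0.85). A dimmer one averaged -0.17 (0.30). Slc39a11 fell by 0.86 at 18 h (adjusted p = 0.028), lost without any 1 of the 4 arrays of that time (adjusted p up to 0.28), and by 0.25 on the average, lost without any 1 of 15 arrays.

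Among the 18 Slc35 and related carriers of nucleotide sugars and acetyl-CoA, 1 was called. That was Slc35f3, proposed as a thiamine transporter: at 4 h it read 786.4, 969.3 and 868.2 with dexamethasone and 347.5, 381.9 and 351.9 with vehicle. The rises were 0.84 at 2 h, 1.36 at 4 h (SE 0.19, 2.57-fold, adjusted p = 2.1e-05), 1.41 at 6 h and 0.76 at 12 h; 0.53 at 24 h did not pass (adjusted p = 0.30). The 2 h call was lost without dexamethasone replicates 2 or 3 or vehicle replicates 1 or 3 (adjusted p up to 0.17). At 12 h it was lost without any 1 of 29 arrays, its value being 0.44 without dexamethasone replicate 2 and 0.42 without vehicle replicate 1.

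Of the 10 vitamin, choline and fatty acid carriers, Slc44a2, a choline transporter family member, rose by 0.18 (0.28 without the 0.25 h and 1 h arrays) and Slc46a1, the proton-coupled folate transporter, fell by 0.30. Slc46a1 also fell at 12 h by 1.04 (adjusted p = 0.024), lost without vehicle replicate 1 or dexamethasone replicate 2 (adjusted p up to 0.33). Its average call was lost without any 1 of 23 arrays and was -0.19 without the 12 h arrays (adjusted p = 0.29). The ascorbate transporter Slc23a2 had an average of 0.26 that did not pass (adjusted p = 0.30), and 1.18 at 12 h (adjusted p = 0.098).

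Of the 2 vesicular and lysosomal organic anion carriers 1 fell and 1 rose. Slc17a8, a vesicular glutamate transporter, read 109.9 to 137.5 with dexamethasone and 207.3 to 261.5 with vehicle over the 6 arrays of each treatment from 12 h on, without overlap. With dexamethasone it thus read not far above the background level of 91.7. It fell by 1.19 at 12 h, 1.26 at 18 h (SE 0.19, 2.40-fold lower, adjusted p = 6.1e-05) and 1.04 at 24 h, and its 12 h call was lost when that time was fitted alone (adjusted p = 0.38). Slc17a5, which exports sialic acid from lysosomes, rose by 0.29 on the average and by 0.75 at 18 h, where 473.3 and 517.6 with dexamethasone stood against 314.1 and 301.2 with vehicle (adjusted p = 0.032). The 18 h call was lost without any 1 of its 4 arrays (adjusted p up to 0.31).

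The 11 carriers of organic ions, peptides and nucleosides held 1 riser and 1 faller. Slc29a3, a lysosomal nucleoside transporter, read 602.7, 784.1 and 723.6 with dexamethasone at 4 h and 279.5, 339.8 and 332.9 with vehicle. It rose by 1.24 at 4 h (SE 0.24, 2.36-fold, adjusted p = 0.0018) and by 0.40 on the average, and at 18 h its arrays lay close together (276.8 and 256.1 with dexamethasone, 294.4 and 273.4 with vehicle; -0.10, adjusted p = 1). Slc15a2, a proton-coupled oligopeptide transporter of the plasma membrane, fell by 0.90 at 12 h (adjusted p = 0.0077), where 1266 and 1588 with dexamethasone stood against 2037 and 3340.2 with vehicle. It was the single member called at a time but not on the average (-0.10), and without vehicle replicate 2 of 12 h its value was -0.53 (adjusted p = 0.19); the call was also lost without dexamethasone replicate 1.

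Slc15a3 carries histidine and small peptides out of lysosomes and is known from macrophages and microglia. It read 83.9, 128.4 and 595.2 (lowest, median and highest) with dexamethasone and 123.0, 198.85 and 626.4 with vehicle. The high values all came from arrays on which microglial markers were high: 525.8 to 595.2 with dexamethasone and 564.2 to 626.4 with vehicle at 0.25 h and 1 h, and 561.2 on vehicle replicate 1 at 12 h. At 18 h, where the summed microglial markers were 12951 and 13352 with dexamethasone and 14018 and 13459 with vehicle, Slc15a3 read 93.9 and 83.9 with dexamethasone and 201.7 and 175.3 with vehicle.

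Slc15a3 fell by 0.83 on the average (SE 0.14, adjusted p = 0.00011) and by 1.5 at 18 h (adjusted p = 0.035), and its value was negative at all 8 times. These sizes are set against a probe near the background level of 91.7, which 1 of the 2 dexamethasone arrays at 12 h and at 18 h did not reach; without background correction the values were -1.08 at 18 h, where the call was lost (adjusted p = 0.094), and -1.45 at 12 h. At 12 h the arrays read 113.9 and 89.4 with dexamethasone and 561.2 and 135.2 with vehicle (-1.80, adjusted p = 0.0069); without vehicle replicate 1 the value was -0.61 (adjusted p = 0.28) and without replicate 2 it was -3.0. The 12 h call was also lost without dexamethasone replicate 2, and the 18 h call without any 1 of its 4 arrays (adjusted p up to 0.32). Of 14 tested microglial markers none rose and 2 fell on the average (median -0.12); 3 fell at 12 h and none at 18 h, and none of the 14 was listed at 0. The part of microglial RNA in the fall of Slc15a3 was not tested.

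**Figure D4:**
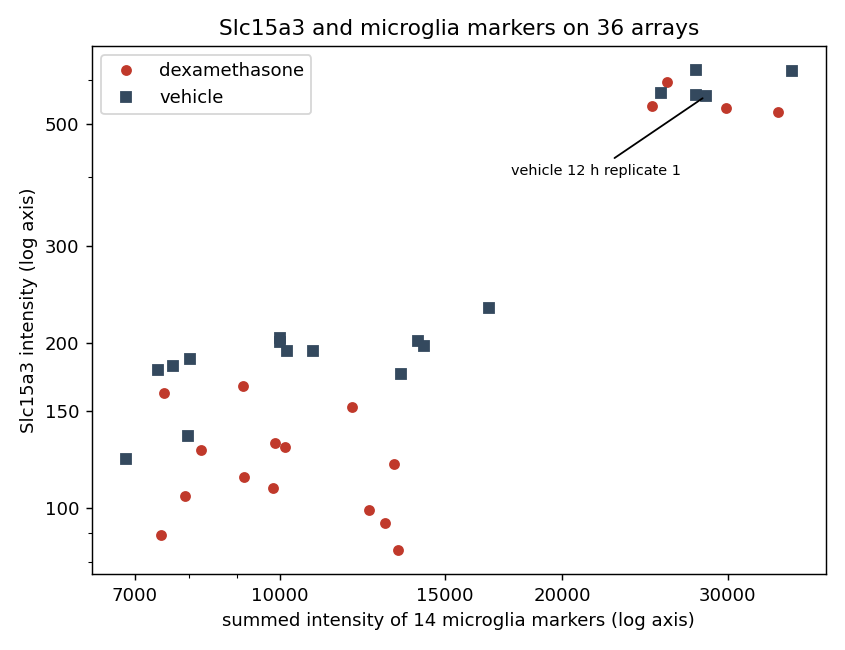
Slc15a3 intensity against the summed intensity of 14 microglial markers on each of 36 arrays (both log axes), dexamethasone and vehicle marked apart. The 9 arrays with sums of 24923 or more read at least 525.8 for Slc15a3, and the other 27 arrays at most 230.9.

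Responses at 12, 18 and 24 h were set against those at 1, 2 and 4 h by an interaction in limma. Of the members 12 were called (7.69%), 4 towards higher and 8 towards lower late values. The share called was 4.89% of all genes (1.87% higher, 3.02% lower). Among genes with a mean intensity of 150 or more it was 7.52% (2.84% higher, 4.68% lower), close to that of the members. Slc14a2 averaged -1.55 late and 0.14 early (difference -1.70, SE 0.23, adjusted p = 1.4e-05). Slc17a8 averaged -1.17 late and 0.07 early (-1.23), and Slc8a1 -1.30 late and -0.13 early (-1.16, adjusted p = 1.9e-06). Slc45a3 had positive means in both periods, with 0.87 late and 2.39 early (-1.52, adjusted p = 1.7e-05). Of the late times it was called at 12 h alone, and that call was lost when 12 h was fitted alone. Slc15a3 (-1.18) was -0.78 without vehicle replicate 1 of 12 h.

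In the other direction Slc24a6 averaged 1.00 late and -0.17 early (1.17, SE 0.21, adjusted p = 0.00076), Slc13a4 1.42 late and 0.32 early (1.10, adjusted p = 0.0057), Slc24a4 1.40 late and 0.61 early (0.79) and Slc25a33 2.63 late and 2.03 early (0.60, adjusted p = 0.042). The Slc24a4 call was lost without dexamethasone replicate 2 or vehicle replicate 1 of 1 h or 18 h, or vehicle replicate 2 of 12 h (adjusted p up to 0.061). The Slc15a3 call was lost without dexamethasone replicate 2 of 12 h or 18 h, replicate 1 of 24 h, or vehicle replicate 1 of 18 h or 2 of 24 h (adjusted p up to 0.062), and that of Slc25a33 without any 1 of 22 arrays (up to 0.10). Slc25a18 (-0.76), Slc35f1 (-0.75), a family member without a settled substrate, and Slc39a11 (-0.70) were the remaining members lower late. Without the 12 h arrays the late-minus-early calls of Slc24a4 (0.61), Slc25a33 (0.48), Slc25a18 (-0.57) and Slc35f1 (-0.70) were lost.

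Markers of other cells also differed between the treatments at late times. The 5 tested ependymal markers summed to 4894 to 9893 with dexamethasone and 8802 to 13867 with vehicle over 12, 18 and 24 h, without overlap within a time; 3 of 5 fell in the late-minus-early comparison and none was listed at 0. Fibroblast and pericyte markers (8 tested, 2 higher and 0 lower in that comparison) summed to 22673 to 28373 with dexamethasone and 11114 to 13864 with vehicle over the same times, mostly through Ogn, a small leucine-rich proteoglycan (1.22 at 12 h, 1.18 at 18 h). Astrocyte markers (12 tested) gave 4 higher and 1 lower at 12 h, 5 and 0 at 18 h, and 5 and 1 at 24 h. Their sums overlapped at 12 h, with 99319 to 116249 with dexamethasone and 96201 to 120135 with vehicle. At 18 h they were 119467 to 121847 with dexamethasone and 98958 to 102705 with vehicle, and at 24 h 118052 to 125660 with dexamethasone and 97993 to 109057 with vehicle.

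Oligodendrocyte markers (13 tested, 1 called higher in the late-minus-early comparison) summed at 12 h to 29372 to 32735 with dexamethasone and 35752 to 41120 with vehicle. At 18 h their sums were 36176 to 38170 with dexamethasone and 33188 to 35321 with vehicle, and at 24 h 37802 to 42490 with dexamethasone and 34701 to 35373 with vehicle. The tight junction gene Cldn11, which is on that list, had differences of 1.83, 3.36 and 3.90 at these 3 times. Neuronal markers (9 tested, none called at these times) summed to 4181 to 4786 with dexamethasone and 4972 to 5573 with vehicle at 12 h, and to 4090 to 4155 with dexamethasone and 4715 to 4995 with vehicle at 18 h. At 24 h the neuronal sums overlapped, with 4475 to 5699 with dexamethasone and 5194 to 5661 with vehicle. The part of any of these cell types in the late falls and rises of the members was not tested.

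**Figure D5:**
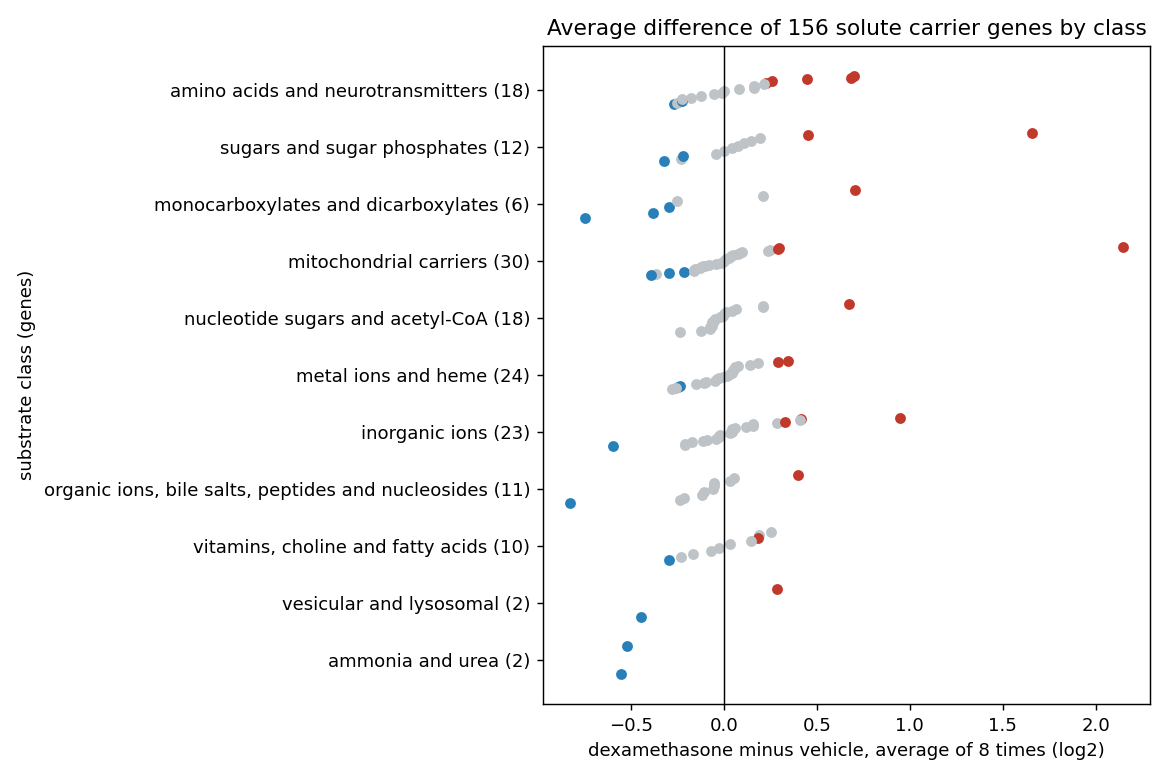
Average log2 difference of every member by substrate class, dexamethasone minus vehicle, with called members in red (higher) or blue (lower) and all others in grey. Both urea transporters lie below 0, and the mitochondrial and sugar classes each hold 1 member above 1.5.

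Other probes of the same genes gave a further reading. For 14 called members 22 further probes passed the filter of 2 arrays above background. Of these, 9 lay above it on all 36 arrays and the dimmest on 14. All 22 had the same sign on the average as the probe used, 10 were called the same way (7 of the 9) and none the opposite way. Among the 9, the probes of Slc11a2 (-0.05) and Slc38a9 (0.17) were not called. Near the intensity limit, Slc29a2 (151), Slc39a2 (151) and Slc1a6 (150.025) were just inside and Slc9a7 (146), Slc7a11 (142) and Slc5a3 (139) just outside. Of the genes set aside, Slc10a6 averaged 2.27, Slc1a2 0.27, Slc2a1 0.16, Slc30a1 0.19, Slc1a3 -0.06 and Slc38a3 -0.34.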

How the data were processed

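Per the labels, total RNA of 36 samples was labelled with biotin and hybridised to Illumina BeadChips; the submitters' processing notes name GenomeStudio without a version. The deposited series table holds intensity values on a linear scale for 45281 probes; array medians run from 93.7 to 94 and the sorted values nearly coincide, so the authors had normalized between arrays. A further 72 per-sample columns of the other deposited table match no label and were not used; only its symbols were read. Intensities were corrected by normexp (offset 16) and put on the log2 scale. The background level (91.7) came from the mode of all values (70.2) and the spread below it, mirrored. Probes that exceeded this level on 2 or more arrays stayed in (29540), and each symbol took its probe with the highest mean. On each array 51.4% to 51.5% of probes lay above it. No read depth exists here: the number of arrays and the signal over background limit precision.

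limma 3.58.1 in R 4.3.3 fitted 16 group means (20 residual and 5.19 prior degrees of freedom), with Benjamini-Hochberg adjustment over 20637 genes in each comparison; the test was tried on simulated data. Pairing was checked by correlating the deviations of same-numbered arrays from their group means. At 2 h (0.86, 0.68, 0.77) and 4 h (0.57, 0.36, 0.54) every pair exceeded 0.1, so same-numbered arrays varied together there. The other times have 2 pairs each, too few for that rule. With the block the count of called members went from 4 to 6 at 2 h (1.92% of all genes). At 4 h it went from 7 to 15 (6.46% of all genes). The SE and adjusted p of single genes in the main fit come without the block. At 2 h and 4 h they thus do not use the pairing. Named members are the 12 largest called rises and falls on the average, the 4 largest each way at a time and late minus early, the 2 with the largest average difference in each class, the 5 brightest, the 3 nearest the limit on each side and those of the amino acid response list; a few called members beyond these were chosen after their values were seen. Members and gene lists were chosen with earlier results of these data known. Alternatives were other background corrections, scaling, filters, replicate block, array weights, variance priors, a fold limit, single times alone and each array left out. Promoter sequences and current symbols came from RefSeq, build GRCm38.p6 (155 symbols current, 1 by synonym). Plots used matplotlib 3.10.9 under Python 3.11.15.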

Additional observations from a re-analysis of the deposited data

Results flagged for a closer look

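Members were picked out here because their response at 12, 18 and 24 h differed from that at 1, 2 and 4 h by an interaction in limma. Towards higher late values, the differences of log2 differences were 1.17 for Slc24a6, 1.10 for Slc13a4, 0.79 for Slc24a4 and 0.60 for Slc25a33. Towards lower late values they were -1.70 for Slc14a2, -1.52 for Slc45a3, -1.23 for Slc17a8 and -1.18 for Slc15a3. Of these, Slc45a3 was still higher with dexamethasone at 12 h, whereas the other 3 were lower. No explanation of these differences was tested.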

How the results depend on the processing

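For the 105 called values of all members, 988 alternatives kept the call in 923 and lost it in 65, with no reversal. Leaving out 1 array gave 3464 kept and 316 lost of 3780. The count on the average was 61 with the replicate block (24.2% of all genes, against 11.8%) and 10 with a 1.5-fold limit (2.2%), against 38. Without the 12 h arrays it was 33 (9.61% of all genes). Without the 0.25 h and 1 h arrays, an alternative chosen after seeing the data, it was 47 (15.8%). With the replicate block the counts were 15 at 4 h, 20 at 6 h, 48 at 12 h, 31 at 18 h, 26 at 24 h and 41 late minus early (6.46%, 5.25%, 18.6%, 9.35%, 11.3% and 13.6% of all genes); crossing the numbers at 24 h, also chosen after seeing the data because equal numbers correlated at -0.13, gave 26 as well. With 2 arrays a group the numbers are not shown to pair: same-numbered arrays correlated at 0.80, 0.73 and 0.51 at 0.25 h, 1 h and 12 h and at 0.03, -0.05 and -0.13 at 6, 18 and 24 h, so the block is given only as a count. Array weights gave 34 (6 h), 6 (12 h), 52 (18 h) and 14 (24 h), with 11.2%, 1.42%, 18.6% and 5.34% of all genes. Fitted alone, single times gave 2 at 2 h, 30 at 6 h, 0 at 12 h, 46 at 18 h and 8 at 24 h (0.233%, 9.78%, 0.121%, 16.7% and 4.26% of all genes). The fits at 6, 12, 18 and 24 h each rest on 2 residual degrees of freedom. Without 1 array the counts ran from 33 to 42 on the average, 0 to 0 at 0.25 h and 1 h, 2 to 4 at 2 h, 6 to 8 at 4 h, 3 to 8 at 6 h, 9 to 20 at 12 h, 6 to 14 at 18 h, 5 to 11 at 24 h and 8 to 16 late minus early. The share of all genes called moved too: 10.1% to 12.8% on the average, 0.528% to 0.843% at 2 h and 1.77% to 2.71% at 4 h. It was 0.955% to 2.33% at 6 h, 2.88% to 6.86% at 12 h and 1.78% to 4.09% at 18 h. At 24 h it was 2.17% to 4.47%, and late minus early 3.87% to 6.23%. Other causes of these shifts were not tested. Dim members are limited by signal over background.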

Other observations

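Some dim carriers outside the members were called as well. Of the 159 symbols under a mean intensity of 150, 94 were tested, and 5 rose and 2 fell on the average (7.45%). The 11.8% of all genes is no like share for dim carriers. Of the 2432 genes called, 1979 had a mean intensity of 150 or more, as had 11742 of the 20637 tested. The called dim carriers include the metal and bicarbonate symporter Slc39a8 (0.75, limma adjusted p = 0.0016) and the amino acid carrier Slc38a5 (0.51). Lower was the manganese and zinc transporter Slc30a10 (-0.46). Of 40 tested genes of related transport (pumps, organic anion transporters, carbonic anhydrases and metallothioneins), 6 rose and 1 fell (17.5%, beside 11.8% of all genes and 16.9% of genes with a mean intensity of 150 or more), among them the membrane carbonic anhydrase Car14 (1.68), the metallothionein Mt2 (1.11), the organic anion transporter Slco4a1 (0.80), the efflux pump Abcb1b (0.44), Slco3a1 (0.44) and, lower, Slco1c1 (-0.27).

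Some members varied far more between times than between treatments, which was noticed after their values were seen. The sodium-bicarbonate cotransporter Slc4a4 had mean intensities of 779.85 with dexamethasone and 841.65 with vehicle at 6 h, and 8534 with dexamethasone and 6709 with vehicle at 18 h, with no time called. The glutamate transporter Slc1a1 averaged 1004 and 1072 on vehicle arrays at 0.25 h and 1 h and 182 at 18 h. Time and any difference between the cultures used at each time cannot be told apart.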
